A study of Mus musculus with 4 samples.

Results

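UDP-glucuronosyltransferases (UGTs) of the liver were followed in mice with acetaminophen (APAP)-induced liver injury. The genes were chosen by name from a list of 10 symbols, namely Ugt1a1, Ugt1a6a, Ugt1a9, Ugt2a3, Ugt2b1, Ugt2b5, Ugt2b34, Ugt2b35, Ugt2b36 and Ugt3a2, and not by their values. Of these 10, 8 had an entry, that of Ugt1a9 joined with Ugt1a10, among the 27027 entries of the count table, and 7 of the 8 reached a mean of 10 reads over the libraries. The Ugt1a1 and Ugt1a6a genes were not analysed here as single genes. The entry named Ugt1a9 had 1 read in the control pool at 48 h and 0 reads in the other 3 libraries, so that values are given below for 7 genes. The identifier of Ugt1a9 also stands in the joined entries under Ugt1a8 and Ugt1a6b, so this is not a read count of the gene. The whole family, with every UGT symbol of the table, comprised 17 entries, 11 of them with a mean of at least 10 reads.

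Male C57BL/6 mice (C57BL/6J in the methods) aged 9 to 12 weeks were fasted for 10 h and received either 0.9% NaCl (control) or APAP at 300 mg/kg by intraperitoneal injection. Hepatic RNA was pooled in equal shares from 6 control mice each at 24 h and 48 h, and from 7 APAP-treated mice each at the same times. Each pool gave 1 library of massive analysis of cDNA ends (MACE), a method that reads the 3′ end of polyadenylated mRNA. No genotype other than the strain is named for any group. With 1 library per group there was no replicate check and no test between conditions. Each fold is given with a 95% interval from its read counts (Clopper-Pearson, exact), which covers counting error only, not the spread between mice or pools.

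UGTs sit in the membrane of the endoplasmic reticulum and transfer glucuronic acid from UDP-glucuronic acid to drugs, bilirubin, steroids and bile acids, which then leave the cell through efflux transporters. Glucuronidation and sulfation clear most of a low dose of acetaminophen, while a smaller share is oxidised by cytochrome P450 enzymes of pericentral hepatocytes to the reactive metabolite that injures these cells. Hepatocytes are the main site of this reaction in the liver. The Ugt1a enzymes arise from a shared locus in which each enzyme has a first exon of its own, whereas the Ugt2b enzymes are encoded by separate genes.

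The libraries held between 4859661 and 5698778 reads on genes. Counts were normalised by size factors (median of ratios), which lay between 0.880 and 1.17. An entry was called lower or higher where it was at least 2-fold from its control pool at that time, and 12185 entries with a mean of at least 10 reads served as the background. Markers of hepatocytes stood at the level a liver gives, with 208729 to 254523 reads of Alb (albumin) and 63935 to 99563 of Apoa1 (apolipoprotein A-I), and the summed reads of 7 hepatocyte markers were at 0.933-fold of control at 24 h and 1.01-fold at 48 h. Of these 7, none was called lower and Fgb (fibrinogen beta chain) alone was called higher, at 24 h with 2.70-fold. Ttr (transthyretin) was at 0.561-fold at 24 h and 1.06-fold at 48 h, so that single markers ranged widely around their sum, which is mostly Alb. In whole-liver RNA, fewer cells of a type and less RNA per cell cannot be told apart.

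The positions below are those of GENCODE mouse release 21 on GRCm38 (mm10), the build the authors mapped to. Ugt2b34 (chr5:86889767-86906937), Ugt2b1 (chr5:86916638-86926530), Ugt2b36 (chr5:87065927-87092555), Ugt2b5 (chr5:87124960-87140318) and Ugt2a3 (chr5:87324972-87337195) lie on the minus strand, and Ugt2b35 (chr5:87000860-87013275) on the plus strand between them. Together with Ugt2b37 and Ugt2b38, which are no members of the list, they form a cluster of 8 genes over 534 kb, each with 6 exons. Ugt3a2 (chr15:9335550-9370955, plus strand) has 7 exons and stands beside Ugt3a1. Ugt1a1 (chr1:88211959-88218997), Ugt1a6a (chr1:88134809-88218997) and Ugt1a9 (chr1:88070800-88218997) belong to a locus of 9 genes on the plus strand, whose last exon begins at the same base, 88218127, in all 9.

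The coding sequences of the 5 Ugt2b members were identical at between 71.4% and 88.4% of aligned positions. Ugt2b35, Ugt2b36 and Ugt2b5 were the closest to each other, with 87.7% to 88.4%, and Ugt2a3 was identical to the Ugt2b genes at 65.9% to 68.1%. Ugt3a2 shared 51.6% to 53.0% with the Ugt2 genes and 93.2% with Ugt3a1. Since MACE reads come from transcript ends, the last 300 bases of the transcripts were compared as well. No measured member shared its end with another gene at 95% identity over at least 100 bases, the closest being Ugt2b5 with Ugt2b38 (87.5% over 303 aligned positions) and Ugt3a2 with Ugt3a1 (87.4% over 222). The ends of Ugt1a1, Ugt1a6a and Ugt1a9 were identical with each other, and the same bases stood in transcripts of 6 more Ugt1a genes. Of these, Ugt1a7c runs on further, to 88220002, so its own end differs. The last 737 bases of the coding sequences of Ugt1a1, Ugt1a6a and Ugt1a9, of 1584 to 1605 in all, were the same.

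Promoters were compared because the measured genes of the cluster had values on the same side of control in APAP-treated mice. Sequences were taken from RefSeq (GRCm38.p6), which held 9 of the 10 members. The 40 bases before the start are given 5′ to 3′ on the strand of the gene for Ugt2b5 and Ugt2b36, the most abundant members, for Ugt2b35, whose coding sequence is close to both, and for Ugt2b1, which had the widest difference after APAP. Capitals mark the longest run of letters that a sequence shares with Ugt2b36, or, in Ugt2b36 itself, with Ugt2b5. They stand at chr5:87140341-87140380 (minus) for Ugt2b5, chr5:87092556-87092595 (minus) for Ugt2b36, chr5:87000820-87000859 (plus) for Ugt2b35 and chr5:86926504-86926543 (minus) for Ugt2b1. Starts are those of RefSeq, and by the GENCODE position given above part of the Ugt2b1 window lies within the gene.
Ugt2b5: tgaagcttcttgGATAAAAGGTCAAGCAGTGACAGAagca
Ugt2b36: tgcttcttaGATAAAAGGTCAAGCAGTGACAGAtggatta
Ugt2b35: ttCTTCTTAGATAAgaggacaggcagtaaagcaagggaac
Ugt2b1: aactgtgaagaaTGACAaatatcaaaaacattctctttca

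Ugt2b5 and Ugt2b36 shared a run of 24 bases and were identical at 79.1% of aligned positions in this window. Ugt2b35 shared a run of 12 bases with Ugt2b36 and was identical at 67.5%, whereas Ugt2b1 shared 5 bases and 39.5%. Of 2 motifs searched on both strands of the 250 bases before each start, the core GCGTG of the aryl hydrocarbon receptor stood in 28.2% of 32851 promoters and the core TGACNNNGC of NRF2 in 10.2%. Neither was found in the 9 members, which says only that these letters are not in this window.

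All 7 measured members had fewer normalised reads in both APAP pools than in both control pools, which was the case for 26.1% of the 12185 entries, whereas 25% of entries were higher in both APAP pools. When reads were scaled to library totals, this held for 5 of the 7, and not for Ugt2b34 and Ugt2b35, while 13.6% of all entries were lower and 44.3% higher in both APAP pools. For Ugt2b35 the order of the pools was within counting error also with size factors. Its APAP pool at 24 h was at 0.9715-fold of the control pool at 48 h (0.831 to 1.14). The median log2 fold of the 7 was -0.69 at 24 h and -0.52 at 48 h, beside 0.01 and -0.01 over all entries tested. At 24 h, 2 of 7 were called lower (Ugt2b1 and Ugt2a3), against 5.59% of all entries, and 0 of 7 higher, against 6.02%. At 48 h, 2 of 7 were called lower (Ugt2b1 and Ugt3a2), against 5.57% of all entries, and 0 of 7 higher, against 5.97%. Ugt2b1 was the member called at both times. The list is short, and a count of 2 among 7 carries little weight.

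Taken as a sum, the 17 UGT entries had 6442 and 6913 reads in the control pools at 24 h and 48 h and 5139 and 4810 reads in the APAP pools at these times. This was 0.133% of the library in both control pools, and 0.0902% and 0.0974% after APAP. The Ugt1a entries gave only 20 and 22 of the reads in the controls and 31 and 35 of those after APAP. The sum is therefore almost wholly one of Ugt2 and Ugt3 genes and no level of all UGT mRNA. The summed normalised reads were at 0.598-fold of control at 24 h (interval 0.576 to 0.620) and at 0.608-fold at 48 h (0.586 to 0.631). The control pools differed from each other by 1.01-fold (0.978 to 1.05). Without Ugt2b1 the folds were 0.625 and 0.678, so most of the difference lay in the other genes.

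**Figure D1:**
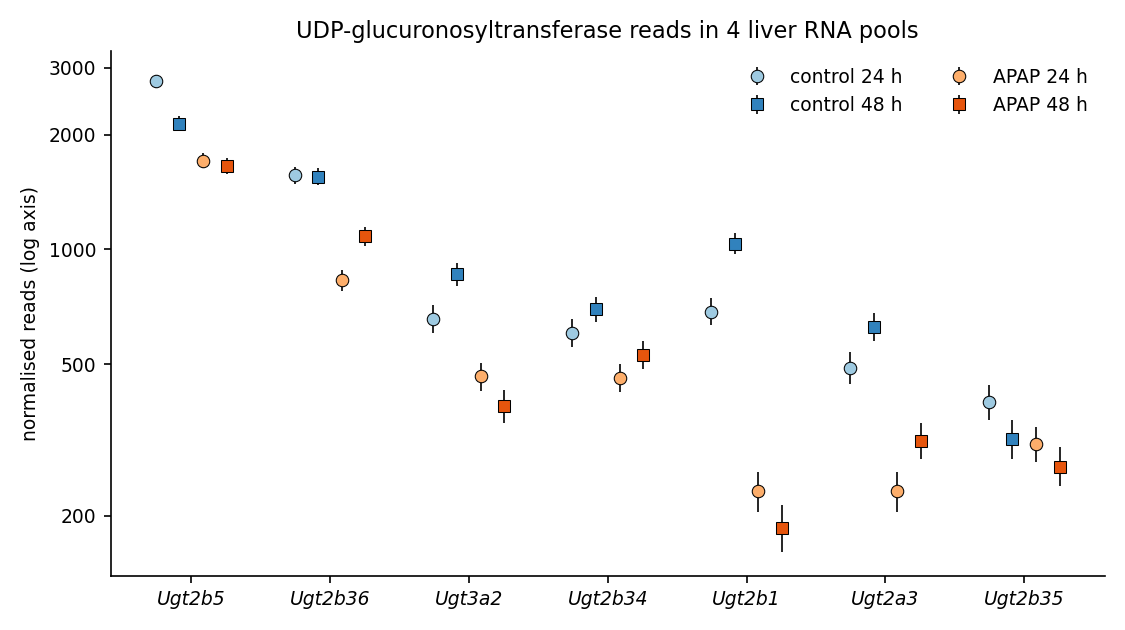
Normalised reads (log axis) of the 7 measured UGT genes in the 4 liver RNA pools, with 1 library per pool, ordered by mean reads. Bars are 95% exact Poisson intervals of the counts. Both APAP pools lie below both control pools for each gene, by the widest margin for Ugt2b1 (687 and 1037 in the controls, 232 and 186 after APAP) and by the narrowest for Ugt2b35. For Ugt2b35 the bars of APAP at 24 h (308, 277 to 342) and control at 48 h (317, 282 to 356) overlap.

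Ugt2b1, whose rat namesake is known to conjugate drugs such as morphine, showed the widest difference of the members. It had 604 and 967 reads in the control pools at 24 h and 48 h and 272 and 198 reads in the APAP pools. Both APAP pools were thus low and the control pool at 48 h was the highest. Normalised reads were 2.96-fold lower than control at 24 h (interval 2.56 to 3.43) and 5.58-fold lower at 48 h (4.79 to 6.54). Among all entries tested, 1.68% had a lower fold at 24 h and 0.632% at 48 h. The control pool at 48 h was itself 1.51-fold above the control pool at 24 h (1.36 to 1.67). Against the control pool of the other time, the values at 24 h and 48 h were 0.223-fold and 0.270-fold, so that the order of the times turned while the gene remained at least 2-fold lower.

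Ugt2a3, whose human counterpart is known to conjugate bile acids, had 430 and 584 reads in the control pools at 24 h and 48 h and 272 and 335 reads in the APAP pools. The pools of APAP-treated mice did not reach the level of either control pool. The fold was 0.474 at 24 h (0.406 to 0.553) and 0.502 at 48 h (0.437 to 0.575), which placed Ugt2a3 just inside the 2-fold threshold at 24 h and just outside it at 48 h. Both intervals reached across the threshold. Here again the control pool at 48 h was above the control pool at 24 h, by 1.28-fold (1.13 to 1.45).

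Ugt2b5 was the most abundant member, at rank 282 of the 12185 entries by mean reads. It had 2434 and 1997 reads in the control pools at 24 h and 48 h and 2009 and 1767 in the APAP pools. On the scale of RPM (reads scaled to the library total), which needs no division by transcript length in a 3′ library, its level was 501 and 385 in the controls and 353 and 358 after APAP. The fold of normalised reads was 0.618 at 24 h (0.583 to 0.656) and 0.774 at 48 h (0.725 to 0.825). The APAP pools hardly differed (0.968-fold, 0.908 to 1.03), while the control pool at 48 h was at 0.774-fold of the control pool at 24 h (0.729 to 0.821). The difference between the control pools was as large as that between APAP and control at 48 h.

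Ugt2b36 came next in level, with 1377 and 1447 reads in the controls at 24 h and 48 h and 976 and 1155 after APAP. Its control pools differed by less than counting error (0.991-fold, 0.920 to 1.07). Against them the APAP pool was at 0.531-fold at 24 h (0.489 to 0.577) and at 0.698-fold at 48 h (0.646 to 0.755). The APAP pool at 48 h stood 1.30-fold above that at 24 h (1.20 to 1.42). Of the 7 genes, Ugt2b36 therefore had the least different controls, with a lower value at 24 h than at 48 h after APAP.

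Ugt2b34 and Ugt2b35 gave the smallest differences at 24 h. Ugt2b34 had 532 and 649 reads in the controls and 539 and 563 after APAP, at 0.759-fold of control at both times (0.672 to 0.857 and 0.676 to 0.851). Ugt2b35 had 350 and 296 reads in the controls and 362 and 287 after APAP. Its fold was 0.775 at 24 h (0.667 to 0.900) and 0.848 at 48 h (0.718 to 1.001), and with library totals the value at 48 h turned to 1.02. The raw counts of both genes overlapped between APAP and control pools. The folds of Ugt2b34 stayed below 1 under every scaling and control run (0.660 to 0.864 at 24 h and 0.753 to 0.912 at 48 h). For Ugt2b35 the control pools differed by 0.798-fold (0.681 to 0.934), about as much as APAP and control did.

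Ugt3a2 belongs to a branch of the family whose human enzymes are known to use sugars other than glucuronic acid. It had 578 and 803 reads in the controls at 24 h and 48 h and 545 and 413 after APAP. The fold was 0.706 at 24 h (0.627 to 0.796) and 0.450 at 48 h (0.398 to 0.507), so that Ugt3a2 was called at 48 h alone. Its control pool at 48 h was 1.31-fold above that at 24 h (1.18 to 1.46), and against the other control pool the value at 48 h was 0.589. Ugt3a1, the neighbouring gene and no member of the list, had 86 and 89 reads in the controls and 73 and 32 after APAP, with folds of 0.636 (0.459 to 0.879) and 0.314 (0.203 to 0.476).

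**Figure D2:**
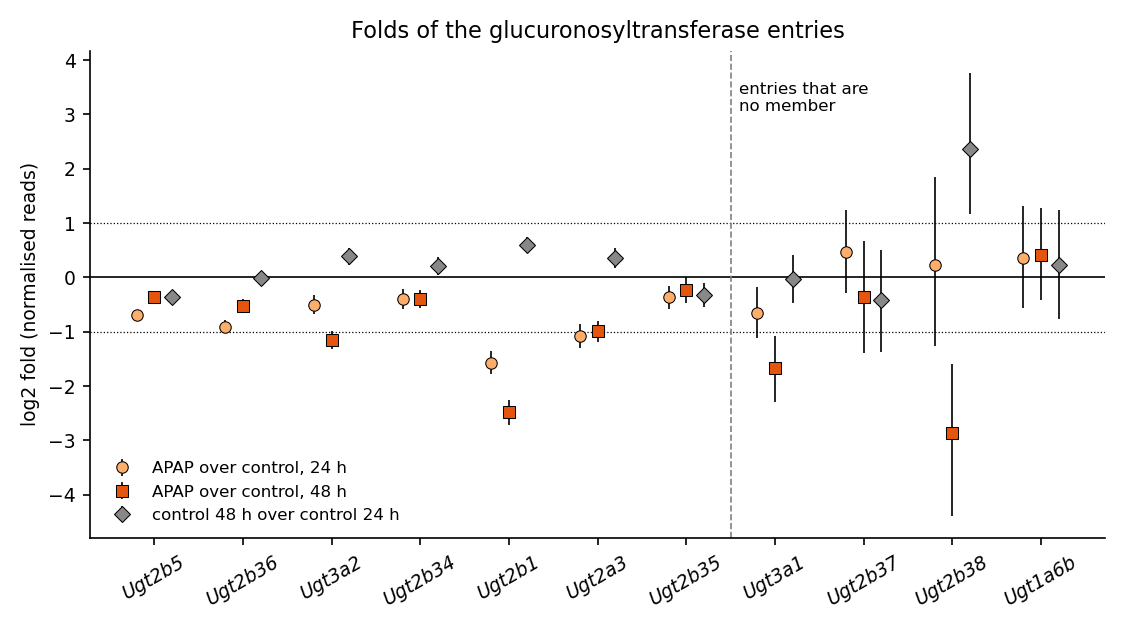
Log2 folds of normalised reads for the 7 members and the 4 other UGT entries with a mean of at least 10 reads, for APAP over control at 24 h and 48 h and for the control pool at 48 h over that at 24 h. Bars are 95% exact counting intervals and dotted lines mark 2-fold. Ugt2b1 lies at -1.57 and -2.48, and the control pools differ by up to 0.59 among the members and by 2.36 for Ugt2b38.

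Between the control pools, 4 members were higher at 48 h and 3 lower, with a range from 0.774-fold (Ugt2b5) to 1.51-fold (Ugt2b1). No member differed 2-fold there, beside 2.41% of all entries that were at least 2-fold lower at 48 h and 2.91% at least 2-fold higher. Among entries with a mean of at least 100 reads, as every measured member had, these shares were 0.270% and 0.360%. The spread among the members' control values was therefore of the same order as the smaller of the APAP differences.

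The folds at 24 h and 48 h were compared with each other in each gene by their ratio, with an exact interval from the 4 counts. The ratio was 0.531 for Ugt2b1 (0.428 to 0.658) and 0.637 for Ugt3a2 (0.537 to 0.755), both lower at 48 h. It was 1.25 for Ugt2b5 (1.15 to 1.37) and 1.31 for Ugt2b36 (1.17 to 1.47), both nearer to control at 48 h. For Ugt2b34 (0.999, 0.845 to 1.18), Ugt2a3 (1.06, 0.860 to 1.30) and Ugt2b35 (1.09, 0.874 to 1.37) the interval held 1. Over all entries, 10.7% had an interval below 1 and 8.69% one above 1. These shares were not matched for reads, and intervals are narrower in entries with many reads. Each ratio also holds the difference between the control pools. In the APAP pools alone, the value at 48 h over that at 24 h was 0.801 for Ugt2b1 (0.664 to 0.966), 0.834 for Ugt3a2 (0.732 to 0.9497) and 1.30 for Ugt2b36.

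The share of each gene among the UGT reads of a library does not depend on size factors. Ugt1a mRNA is hardly counted among these reads, so the shares are in effect those among Ugt2 and Ugt3 genes. Ugt2b1 made up 9.38% (8.67 to 10.1) of these reads in the controls at 24 h and 14.0% (13.2 to 14.8) in those at 48 h. After APAP it made up 5.29% (4.70 to 5.94) and then 4.12% (3.57 to 4.72). Its share was thus lower in both APAP pools. Ugt2b34 went from 8.26% and 9.39% in the controls to 10.5% and 11.7% after APAP, and Ugt2b35 from 5.43% and 4.28% to 7.04% and 5.97%. Ugt2b5 held 37.8% and 28.9% in the controls and 39.1% and 36.7% after APAP, and Ugt2b36 21.4% and 20.9% against 18.99% and 24.0%. These genes were the most frequent in every library, in the same order. The shares of Ugt3a2 (9.0% and 11.6% against 10.6% and 8.6%) and Ugt2a3 (6.67% and 8.45% against 5.29% and 6.96%) overlapped between APAP and control.

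**Figure D3:**
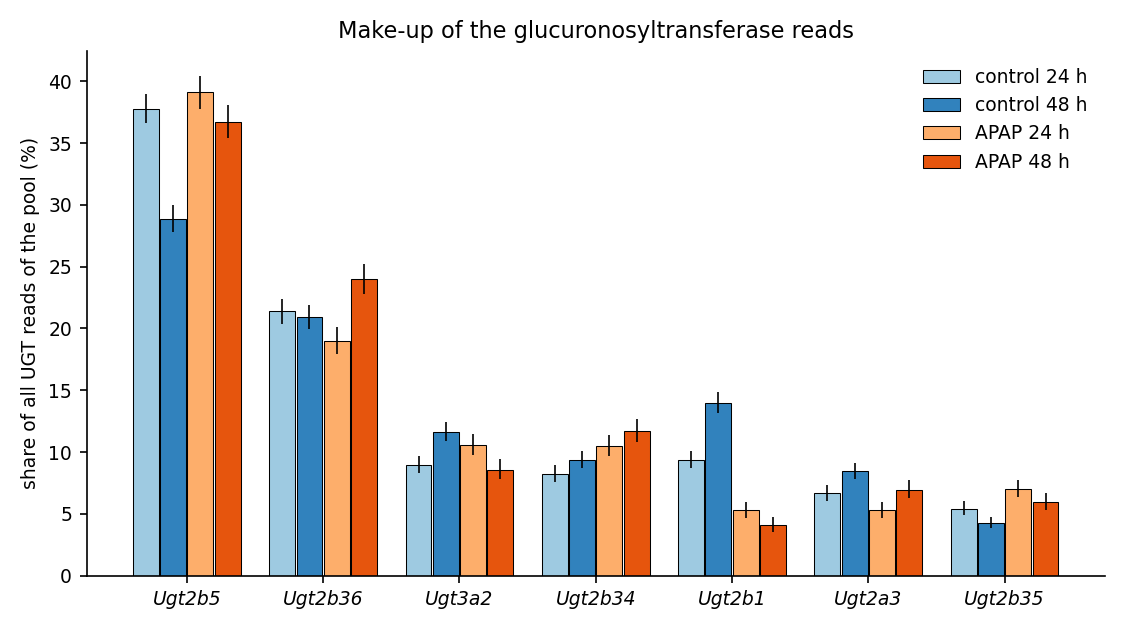
Share (%) of each of the 7 members among all UGT reads of a pool, from an axis starting at 0, with 95% exact binomial intervals. These reads hold hardly any of Ugt1a. Ugt2b1 is lower in both APAP pools (5.29% and 4.12%) than in both control pools (9.38% and 14.0%), and Ugt2b5 is the largest share in every pool.

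The remaining UGT entries were few in reads. The Ugt1a locus was represented by 5 entries with 20 and 22 reads in the controls and 31 and 35 after APAP in sum (1.16-fold, 0.641 to 2.15, and 1.39-fold, 0.794 to 2.49). Most of these reads stood in an entry under the symbol Ugt1a6b that joins several gene identifiers, that of Ugt1a9 among them. Since all 9 genes of the locus end in the same exon, where MACE reads fall, these low counts are no measure of Ugt1a mRNA. How reads that fit several genes were handled is not given in the sources used here. Levels of Ugt1a1, the enzyme that conjugates bilirubin, and of Ugt1a6a and Ugt1a9, which conjugate phenols such as acetaminophen, therefore remain unmeasured. Ugt2b37 had 24 and 19 reads in the controls and 44 and 17 after APAP, with both intervals holding 1. Ugt2b38, whose coding sequence is 97.0% identical with that of Ugt2b5, had 7 and 38 reads in the controls and 11 and 6 after APAP. Its fold of 0.138 at 48 h (0.0477 to 0.329) rests on a control pool that was 5.12-fold above the other (2.26 to 13.6). The other 6 entries, the one named Ugt1a9 among them, had 3 or fewer reads in every library.

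The genes around the UGTs were counted in 5 lists. Of the 6 genes listed around the supply and turnover of UDP-glucuronic acid, 0 were called at either time, and their median log2 fold was -0.01 at 24 h and -0.02 at 48 h. The most abundant were Ugp2, which makes UDP-glucose, with folds of 0.948 and 0.820, and Ugdh, which oxidises UDP-glucose to UDP-glucuronic acid, with 1.14 and 0.860. Ugdh had 355 and 306 reads in the controls and 542 and 301 after APAP. The farthest from control were Slc35b1 at 24 h (1.38-fold) and Slc35d1 at 48 h (1.29-fold), both of the SLC35 family of nucleotide sugar carriers.

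Sulfation is the other main conjugation of acetaminophen. Of 7 measured genes, 2 were called lower at 24 h and 4 at 48 h, none higher, with a median log2 fold of -0.75 and -1.11. Sult2a8, a sulfotransferase of bile acids, had 1440 and 1733 reads in the controls and 399 and 237 after APAP (0.208-fold and 0.120-fold). Papss2, which makes the sulfate donor, had 416 and 680 against 167 and 202 (0.301-fold and 0.260-fold). Sult1b1 (0.463) and Sult5a1 (0.282) joined them at 48 h. The most abundant with Sult2a8 was Sult1a1, a sulfotransferase of phenols, at 1.10-fold and 0.715-fold. Sult1d1 lay on the other side of control, at 1.33-fold (1.09 to 1.64) and 1.82-fold (1.57 to 2.11).

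Among 4 efflux transporters of glucuronides, the most abundant were Abcc2 of the canalicular membrane, at 0.849-fold and 0.901-fold, and Abcc3 of the basolateral membrane, at 0.901-fold and 0.858-fold. At 48 h Abcg2 was called lower (0.486-fold) and Abcc4 higher (3.09-fold, with 13 reads in the control and 46 after APAP). None of 7 receptors and transcription factors known to act on UGT genes was called at either time. Of these, Hnf4a, which is also among the hepatocyte markers, was at 1.17-fold and 0.942-fold and Rxra at 1.16-fold and 1.004-fold. The farthest from control at 24 h was Nr1i3 (1.64-fold, 1.39 to 1.94), which was at 0.976-fold at 48 h (0.805 to 1.18). At 48 h it was Ppara (0.768-fold, 0.642 to 0.917), which was at 0.794-fold at 24 h (0.676 to 0.933).

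Of 10 measured classical targets of these receptors, 2 were lower and 2 higher at 24 h, and 3 lower and 2 higher at 48 h. Cyp3a11, the classical target of the pregnane X receptor, had 2215 and 1924 reads in the controls and 544 and 188 after APAP (0.184-fold and 0.0854-fold). Cyp1a2, a target of the aryl hydrocarbon receptor that is also counted among the pericentral markers below, was at 0.222-fold and 0.317-fold. Hmox1, a target of NRF2, was at 2.24-fold and 2.33-fold. Srxn1, another NRF2 target, was called at 24 h alone (4.51-fold), Cyp4a14 at 48 h alone (2.02-fold), and Cyp2b10 was called lower at 48 h (0.477-fold). Cyp4a10 was among the most abundant of the list with Cyp1a2, at 1.45-fold and 0.580-fold. For Cyp4a10, Cyp4a14 and Cyp2b10 the control pools themselves differed at least 2-fold.

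**Figure D4:**
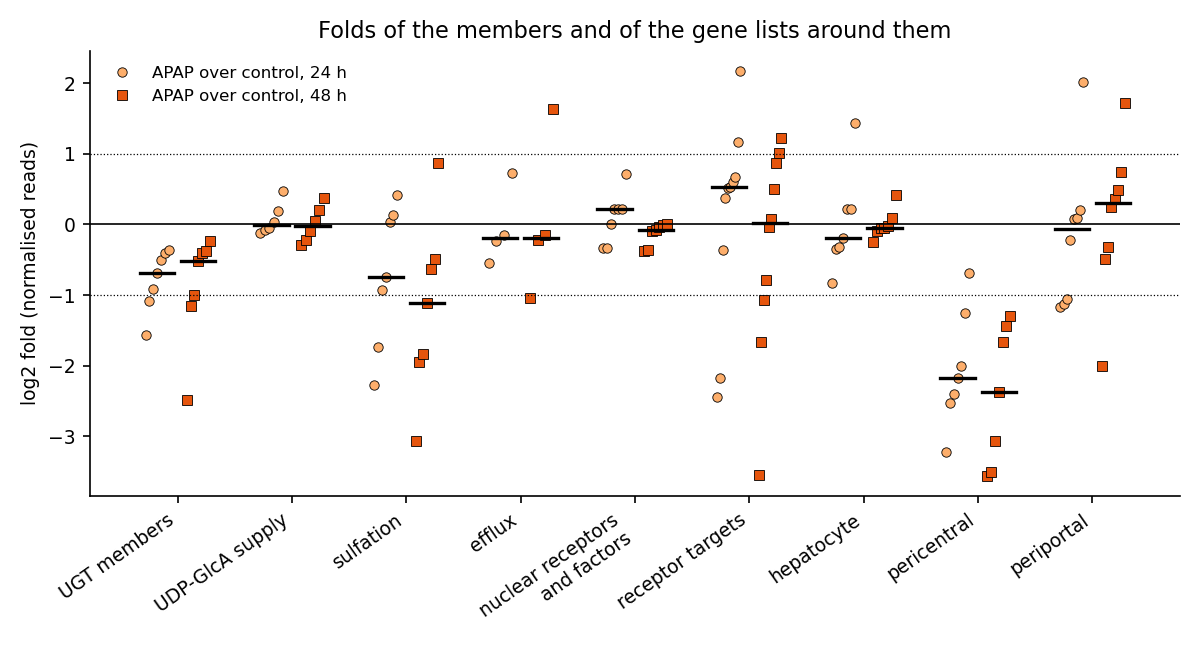
Log2 folds of normalised reads at 24 h and 48 h for the 7 UGT members, the 5 lists of genes around them and 3 marker lists of hepatocytes. Each point is a gene, black lines are medians and dotted lines mark 2-fold. Cyp1a2 is shown among the receptor targets and the pericentral markers, and Hnf4a among the receptors and factors and the hepatocyte markers. The members have medians of -0.69 and -0.52, the supply genes of -0.01 and -0.02, and the pericentral markers of -2.17 and -2.37.

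Marker genes of liver zones and of other cells were counted beside the UGT values. Of 7 measured pericentral markers, 6 were called lower at 24 h and 7 at 48 h, and the summed level of all 8 listed was 2766 and 2981 RPM in the controls and 1292 and 1003 RPM after APAP. Glul (glutamine synthetase) was at 0.107-fold and 0.0850-fold, Rhbg at 0.174-fold and 0.0882-fold, Slc1a2 at 0.189-fold and 0.120-fold, and Cyp2e1, the most abundant of them, at 0.623-fold and 0.369-fold. Rhbg had few reads, with 43 and 109 in the controls and 10 and 11 after APAP, and its control pools differed 2.39-fold (1.67 to 3.49). Of 8 periportal markers, 3 were lower and 1 higher at 24 h, and 1 lower and 1 higher at 48 h, with 5090 and 6201 RPM in the controls and 4119 and 6284 RPM after APAP. Among these, Cyp2f2 was lower (0.444-fold and 0.249-fold) and Pck1 higher (4.07-fold and 3.31-fold) at both times, Ass1 and Gls2 were called lower at 24 h (0.479-fold and 0.457-fold), and Ass1, the most abundant, was at 0.716-fold at 48 h. The part of pericentral cells in the UGT values was not tested, and the zone of each UGT mRNA was not measured.

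Of 7 measured markers of monocytes, macrophages and neutrophils, 2 were called higher at 24 h and 4 at 48 h, and all 8 listed summed to 127 and 130 RPM in the controls and 189 and 328 RPM after APAP. Lyz2 was at 3.42-fold and 5.39-fold, and Clec4f of Kupffer cells at 0.534-fold and 0.985-fold. Cd14 was at 11.5-fold (4.74 to 36.5) and 2.08-fold (1.13 to 3.99). It had 5 and 16 reads in the controls at 24 h and 48 h, and these pools differed 3.02-fold. Ptprc, called at 48 h, had 9 reads in the control and 22 after APAP, with an interval that held 1 (0.946 to 5.27). Among 5 endothelial markers none was called, with the most abundant, Clec4g and Stab2, at 0.940-fold and 0.874-fold at 24 h and 0.902-fold and 0.780-fold at 48 h, and Pecam1 at 1.67-fold and 1.94-fold on the other side of control. Of 5 markers of stellate cells and fibroblasts, Col1a1 (4.497-fold), Col3a1 (2.07-fold) and Des (2.22-fold) were called higher at 48 h, while Dcn, the most abundant, was at 1.37-fold and 1.48-fold. Lrat of stellate cells was at 0.557-fold and 0.832-fold, and Col3a1 at 0.694-fold at 24 h. Of the 4 cholangiocyte markers Sox9 alone reached a mean of 10 reads (3.97-fold and 1.79-fold). The part of these cells in the UGT values was not tested.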

How the data were processed

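RNA of 4 liver pools was sequenced by 3′ MACE. The authors eliminated duplicates by unique molecular identifiers, removed low-quality bases (cutadapt) and poly(A)-tails, mapped to mm10 and deposited raw HTSeq counts per gene, used here as deposited. The deposited columns of scaled counts, log2 ratios, p-values and false discovery rates were not used. Libraries were assigned by their labels.

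Counts were scaled by median-of-ratios factors from DESeq2 1.42.0 and, as alternatives, by TMM factors (edgeR 4.0.16), library totals and 7 summed hepatocyte markers, in R 4.3.3 and Python 3.11.15 (scipy 1.17.1). Neither tool's test was run, since each group holds 1 library. In each fold, a count of 3 or fewer reads on either side was raised to 3. Where both counts were 3 or fewer, no fold was given. Ratios of folds have exact conditional intervals. Of the 27027 entries, 2414 name more than 1 gene identifier. Transcript ends were compared by blastn 2.17.0. The procedure was tested on simulated counts that held counting error only. That test cannot show how it performs with spread between mice or pools. Named genes were all members, UGT entries with a mean of at least 10 reads and, from each list, up to 4 genes called alike at both times and the 2 most abundant. A further gene of the receptor list is not reported here. Other list genes were named after their values were seen. The members, lists and motifs were chosen with earlier results of these data known.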

Additional observations from a re-analysis of the deposited data

Results flagged for a closer look

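In 6 of 11 UGT entries with a mean of at least 10 reads, the fold at 48 h differed from the fold at 24 h beyond counting error, with the ratio of the folds below 1 in 4 and above 1 in 2. Over all entries, 10.7% had an interval below 1 and 8.69% had an interval above 1. Entries with more reads have narrower intervals, and these shares were not matched for reads. The ratio was 0.531 for Ugt2b1, 0.637 for Ugt3a2, 0.496 for Ugt3a1 (interval 0.286 to 0.847) and 0.123 for Ugt2b38 (0.0267 to 0.497). It was 1.25 for Ugt2b5 and 1.31 for Ugt2b36. These intervals compare 4 libraries and not mice, and each ratio also holds the difference between the control pools, which differed by 1.51-fold for Ugt2b1, 1.31-fold for Ugt3a2, 0.774-fold for Ugt2b5 and 5.12-fold for Ugt2b38. For Ugt2b36 (0.991-fold) and Ugt3a1 (0.976-fold) the control pools differed by less than counting error.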

How the results depend on the processing

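With 1 library per group no replicate could be left out, and no paired analysis was possible because each group holds 1 library. Library totals shift the median of all entries by 0.19 at 24 h and 0.27 at 48 h (log2). With them 1 member was at least 2-fold lower at each time, the median log2 fold of the members was -0.51 and -0.25, the summed UGT reads were at 0.680-fold and 0.732-fold, and Ugt2b35 turned to 1.02-fold at 48 h. With hepatocyte marker factors the count lower was 1 at 24 h and 3 at 48 h (Ugt2a3 at 0.498-fold), the median at 24 h -0.59 and the sum at 24 h 0.641. The control pool of the other time gave medians of -0.89 and -0.64, and 1 member lower at 48 h. The sum of the control pools also left 1 member lower at 48 h. A threshold of 1.5 gave 4 lower at 24 h and a threshold of 3 gave 0 at 24 h and 1 at 48 h. With the interval bound at least 2-fold from 1, Ugt2b1 alone was left, 1 at each time. The share of all entries called was not computed under these scalings, control pools and thresholds, so these counts of members have no background beside them. With the Ugt1a entries summed to 1 value the median at 24 h was -0.60. Without Ugt2b1, an alternative chosen after seeing the data, the summed reads were at 0.625-fold and 0.678-fold. The cause of these shifts was not tested. No member was at least 2-fold higher under any alternative run. Of 98 member folds under the alternatives, 68 stayed within the counting interval, 29 moved out of it and 1 changed direction, with values between 0.178 and 1.02. A pseudocount of 1 and a floor of 10 reads were among these alternatives. Neither could move members with this many reads by much, so part of the 68 was fixed in advance. Among entries with a mean of at least 100 reads, 5.62% and 6.05% were at least 2-fold lower at 24 h and 48 h and 2.45% and 1.96% higher.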
